A study of Homo sapiens with 9 samples.

Results

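The miR-17/92 cluster is a group of 6 microRNA hairpins transcribed together from MIR17HG on chromosome 13. The mature products described here are hsa-miR-17-5p, hsa-miR-17-3p, hsa-miR-18a-5p, hsa-miR-18a-3p, hsa-miR-19a-3p, hsa-miR-20a-5p, hsa-miR-20a-3p, hsa-miR-19b-3p, hsa-miR-92a-1-5p and hsa-miR-92a-3p, written without the human prefix below. These 10 names were chosen by cluster membership, out of 2654 mature miRNA names in the deposited table. They occupy 12 of its 2883 count rows, because each row is a pair of hairpin and mature miRNA, and miR-19b-3p and miR-92a-3p each have a row for a further hairpin outside the cluster. All 12 rows were among the 701 that passed the filter on low counts, which covered 626 mature names. The remaining products of the 6 hairpins, miR-19a-5p and miR-19b-1-5p, are described only as partners of their 3p arms.

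The cells were Jurkat clone E6-1, 1 clonal human T lymphoblast line, and their small RNA was sequenced. The groups were unactivated cells (0 h) and cells activated for 5 h or 12 h, with 3 biological replicates each. Activated cells were kept on plates coated with antibody to CD3 (10 µg/mL), with antibody to CD28 in the medium (5 µg/mL). All cells were of the same line and genotype. There were no unactivated libraries at the later times, so activation cannot be told apart from time in culture. Both activated groups were compared with the same 3 unactivated libraries.

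A miRNA hairpin is cut into a 5p and a 3p strand, and the strand loaded into an Argonaute protein pairs with target mRNAs mainly through its seed, bases 2 to 8. The other strand is usually degraded. The host transcript of this cluster is activated by MYC and E2F factors, and its miRNAs repress the pro-apoptotic protein BIM. In lymphocytes the cluster promotes proliferation and survival, and it is amplified or overexpressed in several lymphomas.

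The mature sequences from RefSeq (GRCh38.p14) are given in genome order to show which arms share a seed, written in capitals.
miR-17-5p: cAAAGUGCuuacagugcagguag
miR-17-3p: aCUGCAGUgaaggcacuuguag
miR-18a-5p: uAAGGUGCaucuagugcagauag
miR-18a-3p: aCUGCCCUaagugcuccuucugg
miR-19a-3p: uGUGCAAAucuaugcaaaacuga
miR-20a-5p: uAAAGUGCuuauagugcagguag
miR-20a-3p: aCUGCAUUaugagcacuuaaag
miR-19b-3p: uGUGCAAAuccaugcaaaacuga
miR-92a-1-5p: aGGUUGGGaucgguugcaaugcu
miR-92a-3p: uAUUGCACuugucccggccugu
miR-17-5p and miR-20a-5p shared the seed AAAGUGC, which 4 other tested miRNAs also had (miR-93-5p, miR-106a-5p, miR-106b-5p and miR-20b-5p). miR-19a-3p and miR-19b-3p shared GUGCAAA and differed at 1 of 23 bases. miR-18a-5p had the seed AAGGUGC, and miR-92a-3p had AUUGCAC, which was found in 5 tested miRNAs. The seeds of miR-17-3p, miR-18a-3p, miR-20a-3p and miR-92a-1-5p each occurred in 1 mature miRNA of the RefSeq table.

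Several members have close copies elsewhere in the genome, which limits what a count can be assigned to. miR-17-5p differs from miR-106a-5p of the related cluster on chromosome X at 1 of 23 bases, and miR-18a-5p differs from miR-18b-5p at 1 of 23. miR-20a-5p and miR-20b-5p differ at 2 bases, as do miR-17-5p and miR-20a-5p. How the authors divided such reads is not given in the sources used here, so the levels of these arms are uncertain to that extent. miR-92a-1-5p differs from miR-92a-2-5p, the matching arm of the other miR-92a hairpin, at 6 of the 22 bases compared. The whole hairpins from RefSeq (GRCh38.p14), with both arms in capitals, show that the 3p arms are identical while the 5p arms are not; MIR92A1 lies at chr13:91351314-91351391 on the plus strand and MIR92A2 at chrX:134169538-134169612 on the minus strand.
MIR92A1: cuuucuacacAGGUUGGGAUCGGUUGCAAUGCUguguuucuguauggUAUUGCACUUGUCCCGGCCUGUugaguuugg
MIR92A2: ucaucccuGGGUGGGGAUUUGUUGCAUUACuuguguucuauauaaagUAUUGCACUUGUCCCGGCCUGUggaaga

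In GENCODE 29 (GRCh38) MIR17HG, gene ENSG00000215417.12, spans chr13:91347820-91354579 on the plus strand. The 6 hairpins lie within 787 bases of it, in the order MIR17, MIR18A, MIR19A, MIR20A, MIR19B1 and MIR92A1. Gaps of 62, 69, 92, 56 and 35 bases separate neighbours. They lie in an intron of transcript MIR17HG-201 and inside an exon of MIR17HG-202 and MIR17HG-203.

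**Figure D1:**
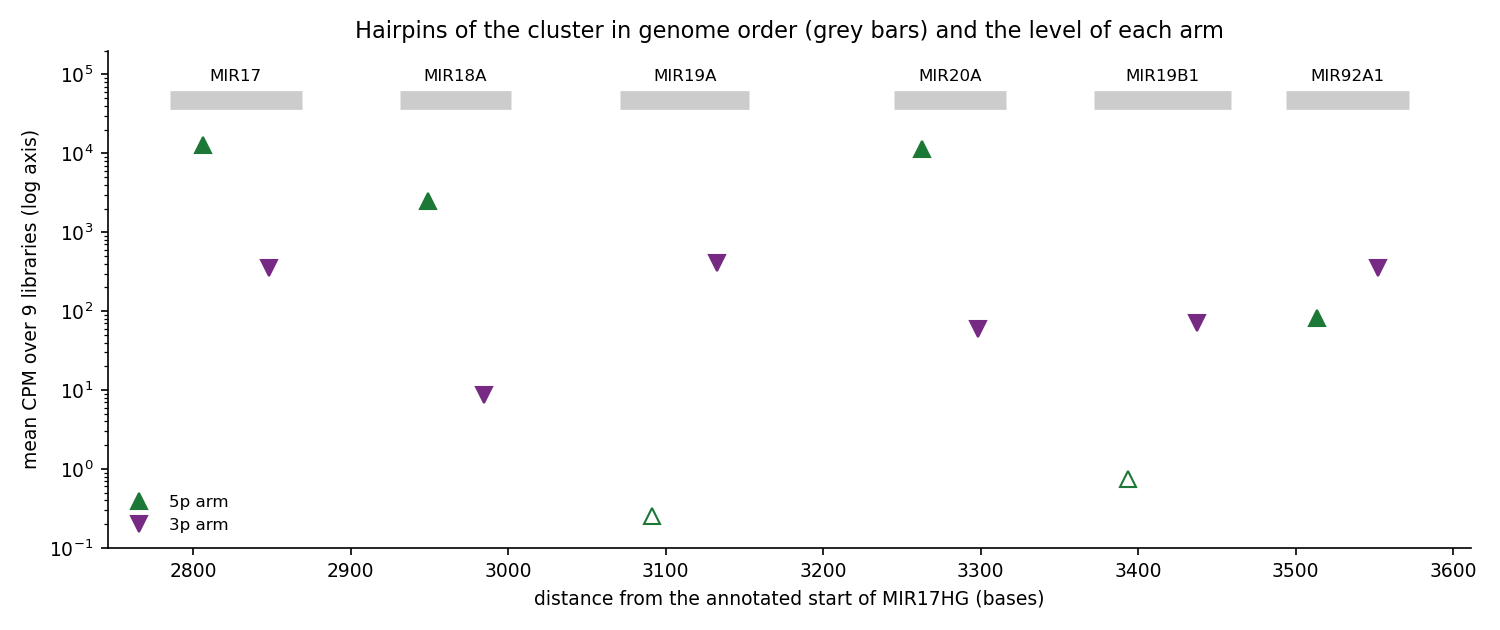
Hairpins of the cluster (grey bars, at their distance in bases from the annotated start of MIR17HG) and the mean CPM of each arm over 9 libraries on a log axis, with upward triangles for 5p arms and downward triangles for 3p arms. Filled symbols are the members and open symbols the 5p arms of MIR19A and MIR19B1; the widest gap between arms of 1 hairpin among the members was that of MIR18A, with 2471 CPM for miR-18a-5p and 8.54 CPM for miR-18a-3p.

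Libraries held 6631839 to 16207031 counts, with 12 h replicate 3 and 0 h replicate 3 the shallowest. Levels are read counts normalised to library size with TMM factors, on the CPM scale, and are given as mean ± SD over 3 libraries. A floor of 3 counts corresponded to 0.176 to 0.471 CPM, and such floors cover counting error only. The miRNAs that mark blood and lymphoid cells were found in all 9 libraries, at unequal levels. The blood markers miR-142-3p and miR-142-5p were at 7425 to 10981 CPM and 1261 to 1639 CPM. Of the lymphoid markers, miR-181a-5p was at 25491 to 41682 CPM, miR-342-3p at 6408 to 7567 CPM and miR-150-5p at 230 to 280 CPM. The myeloid marker miR-223-3p was at 106 to 157 CPM. Of the erythroid markers, miR-451a was found in all 9 libraries at 1.26 to 9.71 CPM, and miR-144-3p had 2 counts in all. Of 10 markers of other tissues, 3 to 5 were above 0 in a library, and miR-1-3p, miR-133a-3p, miR-206, miR-124-3p and miR-205-5p had 0 counts in all 9. Their summed level was 131 to 190 CPM at 0 h, 169 to 263 CPM at 5 h and 169 to 214 CPM at 12 h, of which most was the epithelial pair miR-200c-3p and miR-141-3p. The liver marker miR-122-5p reached 66.8 CPM in 5 h replicate 3, against 0 to 9.03 CPM in the other 8 libraries.

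The cluster as a whole varied little over the time course. Summed over the 10 rows on its 6 hairpins, it had 27893 ± 1218 CPM at 0 h, 29033 ± 1306 CPM at 5 h and 26720 ± 1341 CPM at 12 h (SD, n = 3 each), and the libraries of the 3 times overlapped. Its share of a library's counts was 2.72 ± 0.198% at 0 h, 2.95 ± 0.0909% at 5 h and 2.70 ± 0.230% at 12 h. For this unscaled share the 5 h libraries lay above the 0 h libraries without overlap, but narrowly. The lowest 5 h library had 2.87% and the highest 0 h library 2.85%. How often other miRNAs separate on unscaled shares was not counted. miR-17-5p and miR-20a-5p, the arms with the AAAGUGC seed, together made up 85.5% to 87.1% of the sum in every library. In bulk samples fewer cells with a miRNA and less of it per cell cannot be told apart, and this holds for every level below.

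The order of mean levels over the 9 libraries was miR-17-5p (12803 CPM), miR-20a-5p (11282 CPM), miR-18a-5p (2471 CPM), miR-19a-3p (406 CPM), miR-17-3p (351 CPM) and miR-92a-3p (349 CPM). miR-92a-1-5p (81.9 CPM), miR-19b-3p counted on mir-19b-1 (70.8 CPM), miR-20a-3p (58.7 CPM) and miR-18a-3p (8.54 CPM) followed. miR-17-5p exceeded miR-20a-5p in 9 of 9 libraries, by 1.09 to 1.24 times, although their ranges overlapped. The ranges of miR-20a-5p, miR-18a-5p and miR-19a-3p did not overlap with one another. miR-19a-3p, miR-17-3p and miR-92a-3p were close neighbours: miR-17-3p was above miR-92a-3p in 3 of 9 libraries only. miR-92a-1-5p was above miR-19b-3p on mir-19b-1 in 4 of 9 libraries. miR-18a-3p lay below every other member in every library. Small RNAs differ in how well they are captured in a library, so the order is one of counts, not of molecules.

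**Figure D2:**
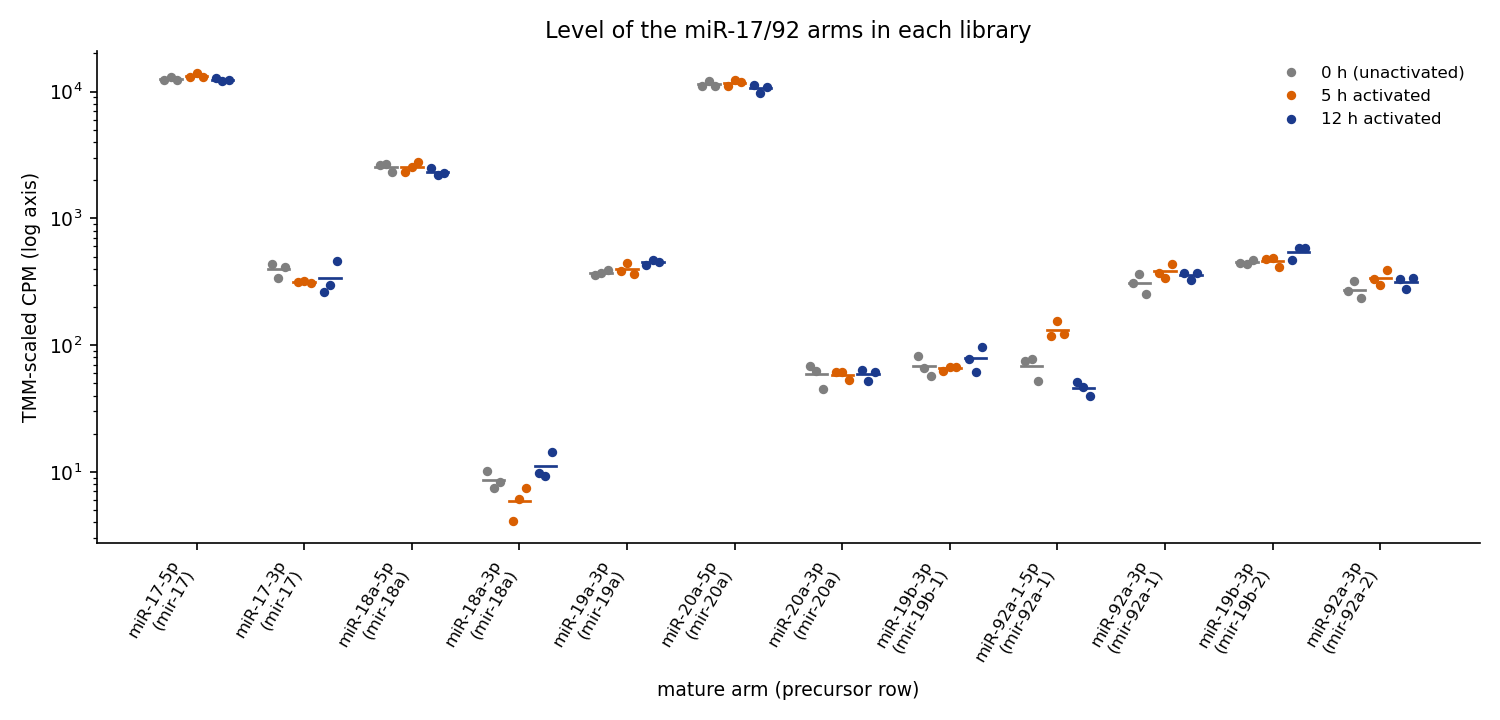
CPM of each member in the 9 libraries at 0 h, 5 h and 12 h, on log axes, with points for libraries and bars for the mean of 3. The abundant 5p arms lie nearly level over time, while miR-92a-1-5p is at 117 to 156 CPM at 5 h and at 39.4 to 50.9 CPM at 12 h.

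Changes with time were tested in edgeR by a quasi-likelihood fit over all 701 rows, with Benjamini-Hochberg adjusted p-values over all of them and a threshold of 0.05. At 5 h against 0 h, 1 of the 12 member rows passed, beside 1.57% of all rows (1.43% of all rows rose). At 12 h against 0 h, 0 of 12 passed, beside 1.43% of all rows; 3 members had an unadjusted p under 0.05 in edgeR, as did 7.28% of all rows, and DESeq2 and limma-voom also called 0. Between 12 h and 5 h 1 passed, beside 0.571% (0.428% of all rows fell), and for any difference among the 3 times 1 passed, beside 1.71%. In each case the member was miR-92a-1-5p. Over the 12 rows, the median log2 change was 0.04 at 5 h against 0 h, 0.10 at 12 h against 0 h and -0.05 at 12 h against 5 h, and over all tested rows it was 0.03, 0.01 and -0.03. Positive changes numbered 7, 7 and 6 of 12 in those 3 comparisons.

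**Figure D3:**
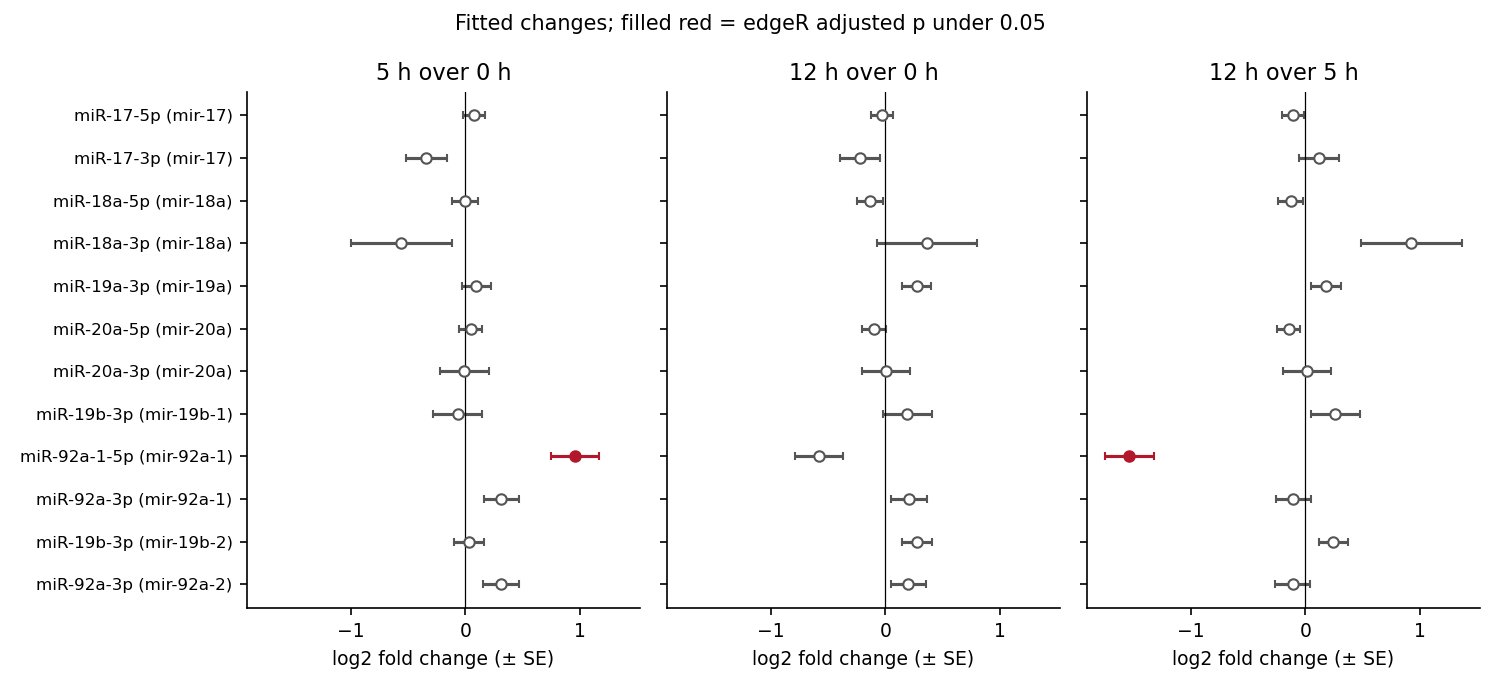
Fitted log2 fold changes (± SE of the fit, 3 libraries per time) of the 12 member rows at 5 h over 0 h, 12 h over 0 h and 12 h over 5 h. Filled red points, with edgeR adjusted p under 0.05, are miR-92a-1-5p at 5 h over 0 h (0.96) and at 12 h over 5 h (-1.53).

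Groups of libraries did not overlap for 3 of 12 member rows in each comparison, beside 10.8% of all rows at 5 h against 0 h, 12.1% at 12 h against 0 h and 12.8% at 12 h against 5 h. In the first comparison these were miR-92a-1-5p (higher at 5 h, as 6.85% of all rows were) and miR-17-3p and miR-18a-3p (lower, as 3.99% were). In the second they were miR-19a-3p and miR-19b-3p on mir-19b-2 (higher at 12 h, as 7.13% of all rows were) and miR-92a-1-5p (lower, as 4.99% were). In the comparison of 12 h with 5 h they were miR-18a-3p (higher at 12 h, as 4.99% of all rows were) and miR-17-5p and miR-92a-1-5p (lower, as 7.85% were).

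Of the 5p arms that carry the cluster, miR-17-5p had 12386, 13162 and 12414 CPM at 0 h, 13042, 13997 and 13017 CPM at 5 h, and 12812, 12086 and 12312 CPM at 12 h. All 3 libraries at 12 h were below all 3 at 5 h, while the other pairs of times overlapped. Its log2 change was 0.08 (SE 0.10) at 5 h against 0 h and -0.11 (SE 0.10) at 12 h against 5 h, with edgeR adjusted p of 0.996 and 1. Its coefficient of variation between replicates was 3.00% to 4.18%.

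miR-20a-5p, which shares the miR-17-5p seed, had 11116, 12114 and 11000 CPM at 0 h, 11091, 12450 and 11812 CPM at 5 h, and 11354, 9710 and 10896 CPM at 12 h. The 3 groups overlapped, and its log2 change was 0.05 (SE 0.10) at 5 h against 0 h and -0.10 (SE 0.10) at 12 h against 0 h. miR-18a-5p, which differs from miR-17-5p at 6 of 23 bases, had 2548 ± 214 CPM at 0 h, 2541 ± 239 CPM at 5 h and 2323 ± 140 CPM at 12 h. Its groups overlapped too, with a log2 change of -0.13 (SE 0.11) at 12 h against 0 h and an edgeR adjusted p of 0.958. miR-106a-5p, the near copy of miR-17-5p on chromosome X, averaged 3583 ± 121 CPM at 0 h, 3616 ± 85.8 CPM at 5 h and 3610 ± 420 CPM at 12 h.

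The miR-19 arms share a seed that no other tested miRNA had. miR-19a-3p had 360, 368 and 389 CPM at 0 h, 387, 443 and 361 CPM at 5 h, and 432, 467 and 450 CPM at 12 h. The 12 h libraries were all above the 0 h libraries, with a log2 change of 0.27 (SE 0.13) whose edgeR p was 0.0457 unadjusted and 0.661 adjusted. miR-19b-3p on the mir-19b-2 row had 443, 438 and 471 CPM at 0 h, 482, 485 and 415 CPM at 5 h, and 472, 583 and 582 CPM at 12 h. Its lowest 12 h library (472 CPM) lay just above its highest 0 h library (471 CPM), and the log2 change was 0.28 (SE 0.13) with an edgeR p of 0.0490 unadjusted and 0.661 adjusted. Neither change passed the threshold.

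miR-19b-3p is cut from mir-19b-1 in the cluster and from mir-19b-2 on chromosome X, and both give the same mature sequence. The table nevertheless held 7366 counts over the 9 libraries on mir-19b-1 and 49622 on mir-19b-2, and the mir-19b-1 row was 10.5% to 18.6% of the other in single libraries. The mir-19b-1 row averaged 68.5 ± 12.9 CPM at 0 h, 65.5 ± 2.73 CPM at 5 h and 78.5 ± 17.5 CPM at 12 h, with overlapping groups. The level of miR-19b-3p from the cluster is therefore not known from the table. Taken alone, the mir-19b-1 row lay beside miR-92a-1-5p and the mir-19b-2 row above miR-19a-3p (a mean of 486 CPM). For miR-92a-3p the row on mir-92a-1 held 37157 counts and that on mir-92a-2 held 32886. The first was 106% to 118% of the other in single libraries. How much miR-92a-3p came from the cluster is likewise not known. Both miRNAs entered the cluster sum and the order of levels by their rows on the cluster's hairpins only.

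miR-92a-3p, the guide strand of the last hairpin, had 307, 366 and 251 CPM at 0 h, 371, 339 and 439 CPM at 5 h, and 372, 325 and 370 CPM at 12 h on its mir-92a-1 row. The groups overlapped at every pair of times. Its log2 change was 0.31 (SE 0.15) at 5 h against 0 h, with an edgeR adjusted p of 0.695, and 0.21 (SE 0.15) at 12 h against 0 h. The mir-92a-2 row gave 0.31 and 0.20.

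miR-92a-1-5p, the opposite strand of the same hairpin, was the member whose level changed: it rose at 5 h and was lower again at 12 h. It had 1257, 1515 and 2104 counts at 5 h and 682, 549 and 251 counts at 12 h, against 1160, 1012 and 341 counts at 0 h. Scaled to depth, the 5 h libraries had 117, 156 and 123 CPM and the 12 h libraries 50.9, 46.3 and 39.4 CPM, against 74.6, 77.4 and 52.0 CPM in the 0 h libraries. No library of any time overlapped with those of another. The log2 change was -1.53 (SE 0.21) at 12 h against 5 h, with an edgeR adjusted p of 0.000349. It was 0.96 (SE 0.21) at 5 h against 0 h, with an adjusted p of 0.0181, and -0.58 (SE 0.21) at 12 h against 0 h, with an adjusted p of 0.511. Its share of the summed cluster was 0.243 ± 0.0435% at 0 h, 0.454 ± 0.0507% at 5 h and 0.171 ± 0.0213% in the 12 h libraries.

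The 2 calls for miR-92a-1-5p differed in how much they rested on single libraries. With each library left out in turn, the change at 12 h against 5 h stayed between -1.65 and -1.37 and its edgeR adjusted p at or below 0.00610. The change at 5 h against 0 h stayed between 0.77 and 1.06, but its adjusted p became 0.101 without 0 h replicate 3, 0.314 without 5 h replicate 2 and 0.0628 without 5 h replicate 3. The library with raised miR-122-5p, 5 h replicate 3, had neither the highest nor the lowest miR-92a-1-5p of its group, and without it the 2 changes were -1.59 and 0.97.

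**Figure D4:**
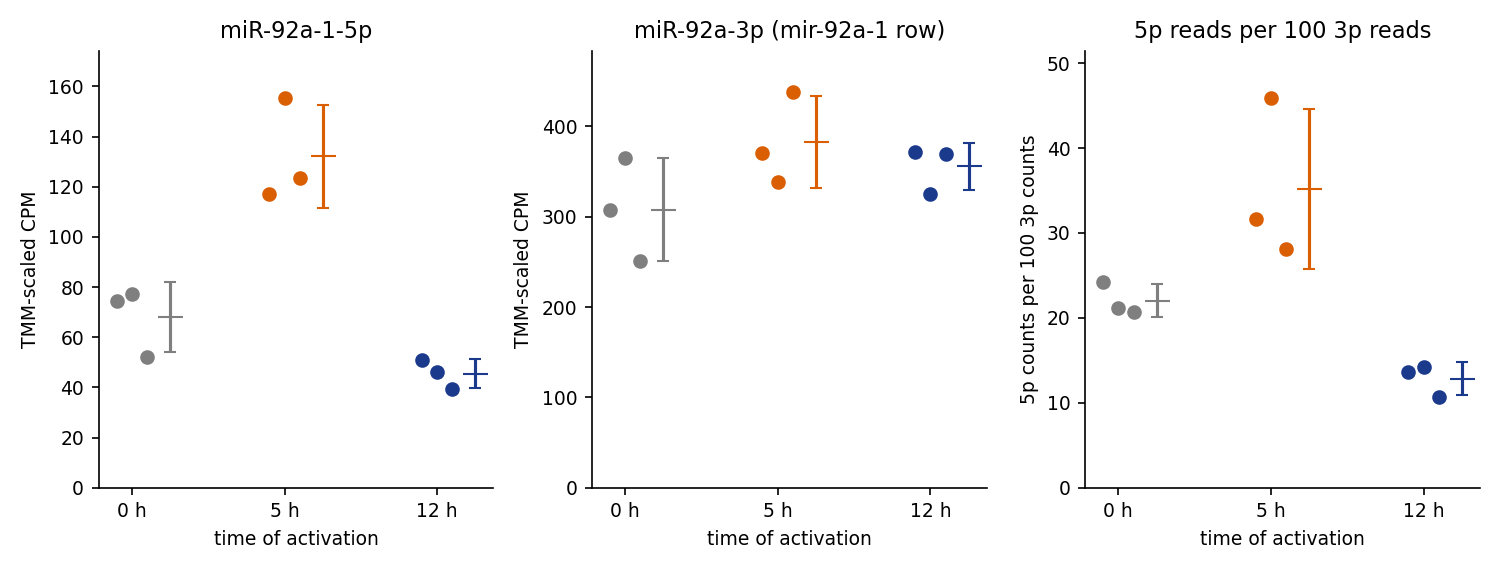
The 2 arms of mir-92a-1 in CPM, and the 5p reads per 100 3p reads, in the 9 libraries at 0 h, 5 h and 12 h, with points for libraries and bars for the mean ± SD of 3. The 5p arm and the ratio separate the 3 times (28.1 to 45.9 reads per 100 at 5 h and 10.7 to 14.2 at 12 h), while the 3p arm overlaps.

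The arms of a hairpin come from 1 precursor, so their ratio within a library does not depend on scaling. For mir-92a-1 there were 24.3, 21.2 and 20.7 5p reads per 100 3p reads at 0 h, 31.6, 45.9 and 28.1 at 5 h, and 13.7, 14.2 and 10.7 in the 12 h libraries. No times overlapped. Separate groups were found for 18.2% of the 165 hairpins tested at 5 h against 0 h, 14.5% at 12 h against 0 h and 15.2% at 12 h against 5 h. The denominator holds reads of both miR-92a hairpins, since their 3p arms are identical.

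In limma on log2 ratios (pseudocount 0.5) no hairpin passed at any pair of times (0% of 165 in each), and unadjusted p-values under 0.05 numbered 9, 11 and 12 at 5 h against 0 h, 12 h against 0 h and 12 h against 5 h. Of the 5 hairpins of the cluster with both arms tested, 0, 1 and 2 had such a p. The mir-92a-1 ratio differed by -1.43 (log2, SE 0.30) at 12 h against 5 h, the smallest p of the 165 (limma, 0.00170 unadjusted, 0.281 adjusted). It passed under 2 of 14 alternatives, and the cause was not tested. With voom weights the difference was -1.37 (limma adjusted p 0.00153). Over the 63 hairpins with both arms at 10 CPM or more in 3 libraries it was -1.43 (limma adjusted p 0.0108). With each library left out in turn, the limma adjusted p ran from 0.169 to 0.690. The ratio of mir-92a-2, outside the cluster, also separated the 3 times, with mean log2 ratios of -4.09 at 0 h, -4.63 at 5 h and -5.65 at 12 h. At 12 h against 5 h it differed by -1.02 (SE 0.31), rank 2 of 165 by p (limma, 0.0118 unadjusted, 0.411 adjusted). At 12 h against 0 h it differed by -1.56 (SE 0.31, limma adjusted p 0.0849).

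For mir-18a the ratio of the arms also separated the 3 times, though no test of it passed. miR-18a-3p, the rarest member, had 10.1, 7.42 and 8.38 CPM at 0 h, 4.11, 6.06 and 7.39 CPM at 5 h, and 9.86, 9.28 and 14.3 CPM at 12 h, from 44 to 157 counts per library. Its 5 h libraries were all below the others, and the log2 change was -0.56 (SE 0.44) at 5 h against 0 h and 0.92 (SE 0.44) at 12 h against 5 h, with edgeR adjusted p of 0.996 and 0.720. There were 300 ± 56.5 5p reads per 3p read at 0 h, 452 ± 97.2 at 5 h and 217 ± 50.3 in the 12 h libraries, without overlap between times. The limma difference at 12 h against 5 h was -1.07 (log2, SE 0.32, adjusted p 0.411).

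No change of the other passenger strands passed. miR-17-3p had 438, 337 and 417 CPM at 0 h, 315, 319 and 307 CPM at 5 h, and 264, 298 and 462 CPM at 12 h. It was lower in all 5 h libraries than in all 0 h libraries, with a log2 change of -0.34 (SE 0.18) and an edgeR adjusted p of 0.720, and at 12 h its libraries spread over both ranges. The mir-17 ratio was 32.4 ± 5.84 5p reads per 3p read at 0 h, 42.6 ± 1.28 at 5 h and 38.6 ± 11.1 in the 12 h libraries. miR-20a-3p had 58.6 ± 12.1 CPM at 0 h, 58.4 ± 4.47 CPM at 5 h and 59.0 ± 5.71 CPM at 12 h, and the mir-20a ratio overlapped at all times, at 162 to 243. For the miR-19 hairpins the 3p arm was nearly the sole product: miR-19a-5p had at most 9 counts in a library and miR-19b-1-5p at most 34.

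The opposite strands of the related miR-92a-2 and miR-25 hairpins had their lowest mean at 12 h, as miR-92a-1-5p did. Their mean at 5 h was below that at 0 h. The opposite strand of the miR-363 hairpin, miR-363-5p, also had its lowest mean at 12 h. Its mean at 5 h was above that at 0 h, as for miR-92a-1-5p. miR-92a-2-5p, in the X-linked cluster, had 15.7, 21.0 and 12.3 CPM at 0 h, 12.8 to 15.2 CPM at 5 h, and 7.32, 4.22 and 7.69 CPM at 12 h. Its 12 h libraries lay below all others, with a log2 change of -1.36 (SE 0.39) at 12 h against 0 h and an edgeR adjusted p of 0.136. miR-25-5p had 76.9 ± 10.6 CPM at 0 h, 63.2 ± 2.59 CPM at 5 h and 38.7 ± 9.05 CPM at 12 h. Its change of -0.99 at 12 h against 0 h passed in edgeR (adjusted p 0.0210), but the adjusted p was 0.0619 with library totals, 0.0917 with upper quartile factors, 0.111 with only the 2 groups fitted and 0.161 without the 2 shallowest libraries. It was also 0.143 without 0 h replicate 1, 0.0558 without 0 h replicate 3 and 0.0750 without 12 h replicate 3. miR-363-5p, in the X-linked cluster, averaged 8.14 CPM at 0 h, 12.1 CPM at 5 h and 5.77 CPM at 12 h. Its log2 change was 0.57 (SE 0.47) at 5 h against 0 h, with an edgeR adjusted p of 0.996. At 12 h against 5 h it was -1.06 (SE 0.48), with an edgeR adjusted p of 0.720. Whether miR-92a-1-5p differed from these strands in its change was not tested.

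Among the miRNAs related to the cluster by copy or seed, 1 change passed the threshold, at 12 h against 0 h, where 1.43% of all rows passed. In the miR-106a cluster on chromosome X, 8 of 10 names were tested, and the median log2 change was -0.02 at 5 h against 0 h, -0.04 at 12 h against 0 h and -0.09 at 12 h against 5 h. The lowest edgeR adjusted p there was the 0.136 of miR-92a-2-5p at 12 h against 0 h. In the miR-106b cluster on chromosome 7 all 6 names were tested, and the call was that of miR-25-5p at 12 h against 0 h. The lowest edgeR adjusted p was 0.668 among the 4 tested relatives with the miR-17 seed and 0.720 among the 4 with the miR-92 seed. The most abundant of them, miR-93-5p, averaged 18992 ± 3157 CPM at 0 h, 14544 ± 548 CPM at 5 h and 18331 ± 4732 CPM at 12 h. Its log2 change at 5 h against 0 h was -0.38 (SE 0.15), with an edgeR adjusted p of 0.668.

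The pattern most like that of miR-92a-1-5p over the 9 libraries was sought among 236 mature miRNAs of at least 10 CPM, as the root mean square difference of centred log2 CPM. The 5 nearest were miR-331-3p (0.413), miR-877-5p (0.457), miR-30b-5p (0.476), miR-760 (0.482) and miR-9-5p (0.486), beside a median of 0.695 over all 236. The nearest, miR-331-3p, had a log2 change of 0.51 at 5 h against 0 h and -0.63 at 12 h against 5 h, with edgeR adjusted p of 0.668 and 0.491. Within the cluster the measure was 0.601 for miR-20a-5p, 0.608 for miR-18a-5p and 0.621 for miR-92a-3p, and 1.07 for miR-18a-3p. A miRNA that did not vary at all would be at 0.663, so the other arm of the same hairpin was hardly nearer than a flat line.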

How the data were processed

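Counts per hairpin and mature miRNA were deposited by the authors for 9 libraries, with no normalisation. A table of log2 normalised values, also deposited by the authors, was used in an alternative only. GRCh38.p13 and DESeq2 are named in the submitters' processing notes; the aligner, the counter and how reads shared by several hairpins were treated: not given in the sources used here. Groups came from the sample titles. Rows were kept by filterByExpr in edgeR 4.0.16 (R 4.3.3; minimum count 10, minimum total 15), which left 701 of 1214 rows above 0, scaled by TMM and fitted with glmQLFit and 1 mean per time over all 9 libraries (6 residual degrees of freedom). p-values were adjusted by Benjamini-Hochberg over all rows. Log2 ratios of the 5p and 3p arms (pseudocount 0.5) of 165 hairpins were tested with limma 3.58.1. Libraries of the same time were not duplicates of each other (chi-square over degrees of freedom at least 70.4 in the 9 pairs). The named miRNAs are all members, their hairpin partners, the lists of related clusters and seeds (members named singly where they passed or shared sequence with a member) and the 5 patterns most like miR-92a-1-5p. The abundant miR-93-5p and the opposite strand miR-363-5p were added after their values were seen. The members and lists were chosen with earlier results of these data known. Alternatives were other scalings and filters, DESeq2 1.42.0, limma-voom, the deposited log2 values, 2 groups only, the replicate number as a block, no 2 shallowest libraries and each library left out. The fits were also run on simulated counts. These had the same spread beyond counting error in every row, set below the common estimate for these data, so that run does not show how the fits perform here. Figures used Python 3.11.15 and matplotlib 3.10.9.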

Additional observations from a re-analysis of the deposited data

Results flagged for a closer look

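For miR-92a-1-5p the change at 12 h and the change at 5 h, both against the same 0 h libraries, differed: the log2 change at 12 h against 5 h was -1.53 (edgeR quasi-likelihood test, adjusted p 0.000349), with every 12 h library below every 5 h library. This was the single result of the cluster that met a rule for a closer look.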

How the results depend on the processing

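Upper quartile factors moved the median of all rows by 0.16 (log2) in both 12 h comparisons; the other scalings moved it by 0.06 or less. Of 1083 values of 57 results under alternative settings, 60 turned direction, none of them a change or ratio that had passed the threshold. The causes were not tested.

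Counts over all 701 rows at 5 h against 0 h were 11, but 17 without a filter and 9 to 11 with libraries left out; the members' count was 0 to 1. At 12 h against 0 h they were 10, but 6 with 2 groups only and 8 to 10 with libraries left out. Between 12 h and 5 h they were 4, but 12 without a filter and 3 to 10 with libraries left out (10 without 12 h replicate 1). For any time they were 12, but 21 without a filter and 7 to 15 with libraries left out (7 without 12 h replicate 2). Arm ratios passed for 0 hairpins, but at 5 h against 0 h for 1 with voom weights, 1 with both arms at 10 CPM and 0 to 2 with libraries left out (2 without 0 h replicate 1 or 2, 1 without 5 h replicate 1 or 2). For 12 h and 0 h 1 passed with both arms at 10 CPM and 0 to 4 with libraries left out (4 without 5 h replicate 2, 2 without 5 h replicate 1, 1 without 0 h replicate 1). For 12 h and 5 h 3 passed with voom weights, 1 with both arms at 10 CPM and 0 to 1 with libraries left out (1 without 0 h or 5 h replicate 2); of these, 1 and 1 were in the cluster (mir-92a-1).

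The 9 correlations of same-numbered deviations over all tested rows lay between -0.0297 and 0.0604, and the 18 of differently numbered ones between -0.114 and 0.0858. Rows with few counts weigh as much as others here, so these values cannot exclude a pairing by replicate number. A replicate block gave 11 calls at 12 h against 5 h and 21 for any time, and turned miR-20a-3p at 5 h against 0 h to 0.0053.

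At 5 h against 0 h, library totals gave 0.052 for miR-18a-5p and 0.039 for miR-20a-3p; the stricter filter gave -0.041 for miR-19b-3p (mir-19b-2) and -0.022 for miR-20a-5p, and the deposited log2 values -0.0027 for miR-19b-3p. At 12 h against 0 h, miR-17-5p was 0.019 with library totals and 0.13 with upper quartile factors, which also gave 0.021 for miR-18a-5p and 0.056 for miR-20a-5p. miR-20a-3p was -0.018 with RLE factors, -0.020 with DESeq2, -0.014 with no or a stricter filter, -0.029 with voom, -0.00036 with the deposited values and -0.18 without the 2 shallowest libraries, which gave -0.10 for miR-19b-3p (mir-19b-1). Between 12 h and 5 h, upper quartile factors gave 0.056 for miR-17-5p, 0.035 for miR-18a-5p, 0.016 for miR-20a-5p and 0.060 and 0.054 for the miR-92a-3p rows, and without the 2 shallowest libraries miR-17-3p was -0.17 and miR-20a-3p -0.021. Without those libraries the arm ratio of hsa-mir-19b-1 was -0.25 at 5 h, that of hsa-mir-20a 0.032 at 12 h against 0 h and that of hsa-mir-17 0.062 at 12 h against 5 h.

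With each library left out, the changes at 5 h against 0 h ran from -0.010 to 0.091 (miR-17-5p), -0.11 to 0.051 (miR-18a-5p), -0.043 to 0.13 (miR-19a-3p), -0.18 to 0.12 (miR-19b-3p, mir-19b-1), -0.061 to 0.068 (mir-19b-2), -0.16 to 0.15 (miR-20a-3p) and -0.047 to 0.059 (miR-20a-5p). At 12 h against 0 h they ran from -0.0066 to 0.35 (miR-19b-3p, mir-19b-1) and -0.14 to 0.13 (miR-20a-3p), and at 12 h against 5 h from -0.17 to 0.25 (miR-17-3p) and -0.065 to 0.095 (miR-20a-3p). The arm ratio of hsa-mir-20a ran from -0.11 to 0.18 at 5 h and -0.27 to 0.023 at 12 h against 0 h, that of hsa-mir-19b-1 from -0.25 to 2.60 at 5 h and that of hsa-mir-17 from -0.37 to 0.062 at 12 h against 5 h.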
